A study of Mus musculus with 12 samples.

Results

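The ubiquitin-conjugating enzymes, or E2 enzymes, were described here as the genes whose symbol begins with Ube2 in the authors' deposited comparison of anti-CD3 with IgG. They numbered 32 of the 13703 genes in that table: 31 protein-coding genes and 1 transcribed pseudogene, Ube2d-ps. The family was chosen by a measured value, the higher Ube2b count with anti-CD3, so every difference between the groups given for its members is a description and supports nothing by itself. Of the 32 genes, 31 passed the filter on low counts. The exception was Ube2cbp, with 2 to 15 counts per library; it encodes a protein that binds an E2 and is not an E2 itself. Another 11 Ube2 genes of the count table lay outside the deposited comparison, among them Ube2t with 40 counts over all libraries, and 6 of these had no count in any library.

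The series profiled polyadenylated RNA of islets isolated from female NOD/ShiLtJ wild-type mice, a strain in which lymphocytes infiltrate the islets and autoimmune diabetes follows. Mice with normal blood glucose, 9 weeks old, received 4 weekly doses, either of IgG or of anti-CD3, which binds the T cell receptor's signalling chains. Anti-CD3 was given at 2.5 mg/kg, islets were taken 2 to 3 days after the final injection, and each group had 6 libraries. The labels do not say whether a library came from 1 mouse or from pooled mice, and where replicates are not separate animals the spread between them may be technical.

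Ubiquitin is joined to proteins in 3 steps. An E1 enzyme activates it, an E2 carries it as a thioester on a cysteine, and an E3 ligase brings the loaded E2 to the substrate. The choice of E2 often sets which kind of ubiquitin chain is built, and a few E2 enzymes carry ubiquitin-like proteins such as NEDD8 or ISG15 instead. Secretory cells such as those of the pancreas depend on E2 enzymes of the endoplasmic reticulum for the disposal of misfolded proteins.

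Libraries held 10994337 to 19284740 counts, of which the 32 genes took 7035 to 29207, or 0.0640% to 0.181%. All 7 islet hormone genes checked were present in every library, at 0.961% to 3.86% of counts, beside 34% to 75.7% for 37 acinar genes. IgG 6 and IgG 5 stood apart, with acinar shares of 34% and 57.8% against 67.9% or more in the other libraries. IgG 6 also had the highest summed normalized counts of T cell markers (3861, against 86.2 to 1216 in the other 11 libraries), macrophage markers (9207, against 510 to 2963) and stromal markers (4843, against 432 to 2216). Values for libraries are counts divided by the deposited size factors and are called normalized counts, and ± on a mean is the SD over 6 libraries. In bulk RNA, fewer cells of a type and less RNA per cell cannot be told apart.

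The catalytic cysteine of E2 enzymes usually follows a His-Pro-Asn motif. A search of the translated principal transcripts for His-Pro-Asn, 7 further residues and a cysteine found it in 16 of the 32 genes. Ube2v1 and Ube2v2, whose proteins have the E2 fold without the catalytic cysteine, were among the 16 without a match. So were Ube2e1, Ube2h, Ube2k and Ube2z, which are active E2 enzymes. A missing match therefore says only that this exact combination of motif and spacing is not there. The coding sequence around the cysteine is shown for the members described most closely, 42 bases each from GENCODE M21 transcripts (GRCm38), 5′ to 3′ on the coding strand, with the cysteine codon in capitals.
Ube2b: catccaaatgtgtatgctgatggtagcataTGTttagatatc
Ube2a: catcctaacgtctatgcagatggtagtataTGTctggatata
Ube2d3: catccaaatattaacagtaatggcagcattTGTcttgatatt
Ube2d1: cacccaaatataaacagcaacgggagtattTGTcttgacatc
Ube2g1: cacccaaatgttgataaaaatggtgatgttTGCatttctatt
Ube2g2: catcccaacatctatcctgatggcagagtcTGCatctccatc
Ube2c: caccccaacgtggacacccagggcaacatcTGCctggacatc
Ube2n: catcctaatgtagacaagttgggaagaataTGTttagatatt
Ube2f: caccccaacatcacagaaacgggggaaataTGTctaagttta
Ube2l6: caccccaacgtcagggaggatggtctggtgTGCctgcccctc
Ube2a shared 34 of these 42 bases with Ube2b, and Ube2d3 shared 30. The fewest shared with Ube2b among the sequences shown were 20, in Ube2f, and 21, in Ube2l6, which carry NEDD8 and ISG15 in place of ubiquitin.

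Ube2b and Ube2a are the mouse counterparts of yeast Rad6. Their proteins work with the ligases Rad18, in damage tolerance at replication forks, and Rnf20 and Rnf40, which ubiquitinate histone H2B, and Ube2b is known for its need in spermatogenesis. The 2 coding sequences were equally long, at 456 bases and 152 residues, and differed at 102 bases but at only 7 residues. Of those bases 85 lay at the third codon position. A stretch around the active site, coding bases 202 to 321, is shown with the 24 differing bases in capitals, because reads of the pair can be told apart only by such differences.
Ube2b: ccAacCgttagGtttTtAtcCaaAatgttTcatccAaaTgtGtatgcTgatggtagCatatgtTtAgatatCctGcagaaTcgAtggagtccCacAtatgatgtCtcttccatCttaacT
Ube2a: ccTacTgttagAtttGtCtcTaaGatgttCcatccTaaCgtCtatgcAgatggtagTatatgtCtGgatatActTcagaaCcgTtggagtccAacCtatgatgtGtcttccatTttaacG
The longest run of bases shared by any annotated transcripts of the 2 genes was 18, and neither gene's principal transcript held a 50-base window found in another gene. No exon of either gene overlapped another gene's exon.

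Ube2b (ENSMUSG00000020390, GRCm38 chromosome 11, 51985497 to 52000762, minus strand) was higher in every anti-CD3 library than in any IgG library. Normalized counts in IgG 1 to 6 were 613, 573, 495, 553, 473 and 583. In anti-CD3 1 to 6 they were 1040, 844, 869, 827, 794 and 916. The groups did not overlap: the lowest anti-CD3 library, anti-CD3 5, lay above the highest IgG library, IgG 1. Means were 548 ± 53.7 and 882 ± 87.6, and edgeR's log2 fold change was 0.69 ± 0.12 (SE), a 1.61-fold difference. The authors' deposited table gives a log2 fold change of 0.68. Summed normalized counts of the acinar markers were 2176000 to 13030000 in the IgG group and 11500000 to 15330000 in the anti-CD3 group, and 3 of the 37 markers were at 0 in at least 1 library. The Ube2b value was 0.69 in a fit with an acinar covariate and 0.66 when IgG 5 and IgG 6 were left out.

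Ube2a (ENSMUSG00000016308, chromosome X, 36873900 to 36884222, plus strand) had normalized counts of 76.5 to 114 in the IgG libraries, with a median of 85.2. In anti-CD3 libraries they were 76.3 to 114, with a median of 97.4. The groups overlapped almost entirely. Means were 89.3 ± 13.4 and 96.6 ± 14.4, and the log2 fold change of 0.11 ± 0.16 (SE) had a 95% interval of -0.20 to 0.41. It was 0.27 under the acinar covariate and -0.05 with an offset that removes the trend of fold change with transcript length. Per kilobase of principal transcript, the level of Ube2b in IgG libraries was 306 ± 29.97 normalized counts and that of Ube2a 51.6 ± 7.74.

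**Figure D1:**
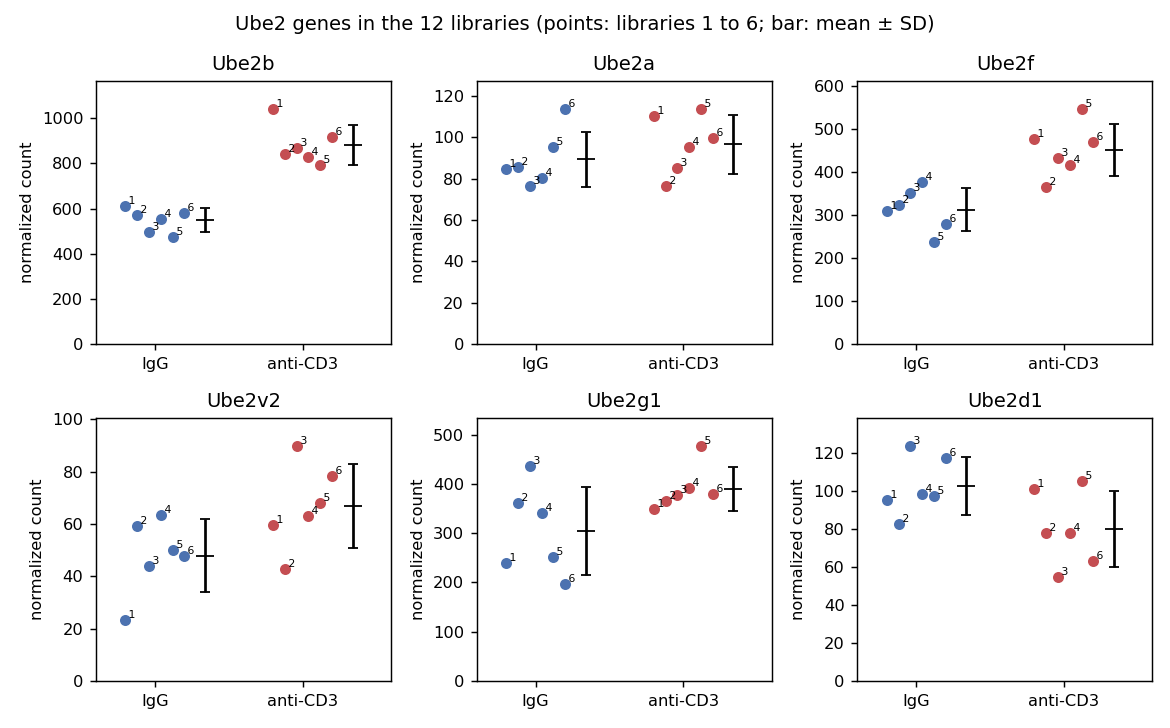
Normalized counts (vertical axes, from 0) of 6 Ube2 genes in the IgG (blue) and anti-CD3 (red) libraries; each point is a library, numbered 1 to 6, and the black bar is the mean ± SD. Ube2b is the gene whose groups do not overlap, from 473 to 613 against 794 to 1040, while the other 5 overlap.

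Few genes were called in this comparison. At an adjusted p of 0.05 in edgeR's quasi-likelihood test, 10 of 13115 tested genes were higher with anti-CD3 (0.0762%) and 0 were lower (0.0%). Among the 31 tested Ube2 genes 1 was past that threshold, Ube2b, which is the gene for which the family was chosen, so nothing is read from that count, and under 17 of 22 alternative analyses Ube2b was not past it either. At an unadjusted p of 0.05, 9.68% of all tested genes were higher and 8.68% lower, against 2 of 31 (Ube2b and Ube2f) and 0 of 31 Ube2 genes. The authors' deposited table, made with DESeq2, has 3.24% of its genes with an adjusted p past 0.05 and higher, and 1.31% lower. It places the same 2 of 29 Ube2 genes among the higher and 0 among the lower. Groups that did not overlap were found for 1.14% of tested genes with anti-CD3 above and 0.648% with anti-CD3 below, and for 1 and 0 Ube2 genes.

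Most Ube2 genes differed little between the groups. The log2 fold changes of 21 of the 31 tested members (67.7%) lay within 0.2 of 0, against 39.6% of all tested genes. These shares were not matched for count level, and fold changes of genes with low counts are less precise. Values were positive for 23 members and negative for 8, with a median of 0.10, and ran from -0.47 (Ube2c) to 0.69 (Ube2b). Over all tested genes 44.8% were positive and the median was -0.05. The sum of all Ube2 genes was 11640 ± 410 normalized counts in IgG and 12710 ± 599 in anti-CD3 libraries. Without Ube2b it was 11090 ± 408 and 11830 ± 629.

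Within the family, Ube2b took a larger share of the counts in anti-CD3 libraries. Its share of all Ube2 counts was 4.15% to 5.39% in the IgG group and 5.79% to 8.19% in the anti-CD3 group, so the groups did not overlap. This share needs no scaling between libraries. The ratio of Ube2b to Ube2a counts was 6.23 ± 0.946 in IgG and 9.27 ± 1.39 in anti-CD3 libraries. It overlapped in 1 library, since anti-CD3 5, at 6.99, lay below IgG 1, at 7.23.

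**Figure D2:**
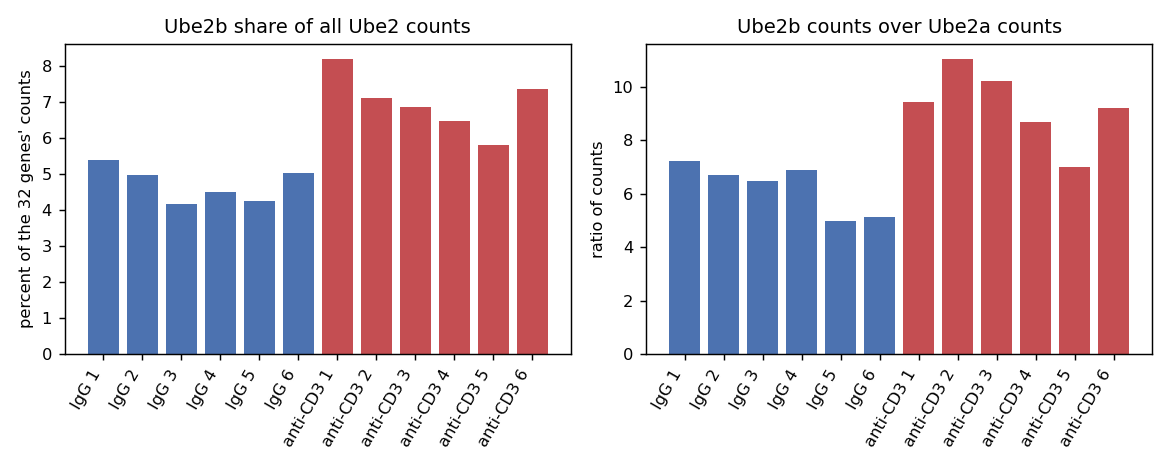
Left, Ube2b counts as a percentage of the counts of all 32 Ube2 genes; right, the ratio of Ube2b to Ube2a counts; each bar is a library, blue for IgG and red for anti-CD3. All red bars on the left (5.79% and above) exceed the blue ones (5.39% and below), while on the right anti-CD3 5 (6.99) falls below IgG 1 (7.23).

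Among the E2 enzymes that serve many RING ligases, 6 of 7 had positive values and Ube2d1 a negative one. Ube2d3, an abundant and widely used E2, had normalized counts of 1498 to 2320 in IgG (median 2047) and 1924 to 2337 in anti-CD3 libraries (median 2221). The groups overlapped, with a log2 fold change of 0.14 ± 0.13 (SE), and with the length offset, which takes its longest transcript of 19300 bases, it was 0.49. Its relative Ube2d1 ran the other way, with 82.9 to 124 in IgG (median 97.9) and 54.6 to 105 in anti-CD3 libraries (median 77.9). Of the anti-CD3 libraries, 4 lay below the lowest IgG library, and the log2 fold change of -0.36 ± 0.18 had a 95% interval of -0.72 to 0.00. Its sign was negative under all 22 alternative analyses. Ube2d2a (0.10), the closely related Ube2e1 (0.09), Ube2e2 (0.06) and Ube2e3 (0.03), and Ube2w (0.25), which modifies the amino terminus of substrates, had values nearer to 0. With the length offset Ube2d2a had 0.29, and under the acinar covariate Ube2w had 0.03 and Ube2e3 -0.27.

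E2 enzymes of the endoplasmic reticulum and of K48-linked chains, the chains that send proteins to the proteasome, were positive for 5 of 6 genes, with a median of 0.13. Ube2g2, which works in degradation from the endoplasmic reticulum, had 440 to 866 normalized counts in IgG (median 556) and 610 to 966 in anti-CD3 libraries (median 693). For Ube2g1, its close relative, these were 198 to 437 (median 296) and 350 to 477 (median 379). For both genes each anti-CD3 library exceeded the mean of the IgG group. The groups overlapped, for Ube2g2 through IgG 3 and for Ube2g1 through IgG 2 and IgG 3. The log2 fold changes were 0.31 ± 0.17 for Ube2g2 and 0.36 ± 0.18 for Ube2g1. Under the acinar covariate they were 0.08 and 0.06, and 0.20 and 0.18 when IgG 5 and IgG 6 were left out. Ube2j1 and Ube2j2, which are anchored in the membrane of the endoplasmic reticulum, had values of 0.02 and 0.10. Ube2k, which builds K48-linked chains, had 0.15, and Ube2r2, a partner of cullin ligases, had -0.10 ± 0.19.

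Ube2n forms K63-linked chains, which serve signalling and DNA repair, together with an inactive partner, Ube2v1 or Ube2v2. Ube2v2 had 23.5 to 63.5 normalized counts in IgG (median 48.8) and 42.7 to 89.8 in anti-CD3 libraries (median 65.7). The groups overlapped, and the log2 fold change was 0.49 ± 0.25. Ube2n itself had 267 to 419 in IgG and 271 to 336 in anti-CD3 libraries, with a log2 fold change of -0.12 ± 0.13. The ratio of Ube2v2 to Ube2n counts was 0.148 ± 0.0422 in IgG and 0.226 ± 0.0578 in anti-CD3 libraries, also overlapping. For Ube2v1 (0.16 ± 0.36) the measurement is uncertain: 83.2% of the 50-base windows of its transcript also occur in other genes, mostly in Gm20431, which lies on the same strand.

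Ube2f and Ube2m load NEDD8 onto cullins, Ube2f with the RING protein Rnf7 and Ube2m with Rbx1. Ube2f counts in IgG 1 to 6 were 309, 324, 351, 377, 236 and 279. In anti-CD3 1 to 6 they were 477, 364, 433, 417, 546 and 469. Of the anti-CD3 libraries, 5 lay above every IgG library and anti-CD3 2 did not. The log2 fold change was 0.53 ± 0.14, with a 95% interval of 0.26 to 0.80. The authors' deposited table gives 0.53 as well. The value was 0.37 under the acinar covariate and 0.40 when IgG 5 and IgG 6 were left out. Ube2m, at 155 to 282 normalized counts in IgG and 186 to 294 in anti-CD3 libraries, had -0.01 ± 0.16. The ratio of Ube2f to Ube2m counts was 1.47 ± 0.500 in IgG and 2.05 ± 0.265 in anti-CD3 libraries, and overlapped because of IgG 3 (2.26) and IgG 4 (1.89).

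**Figure D3:**
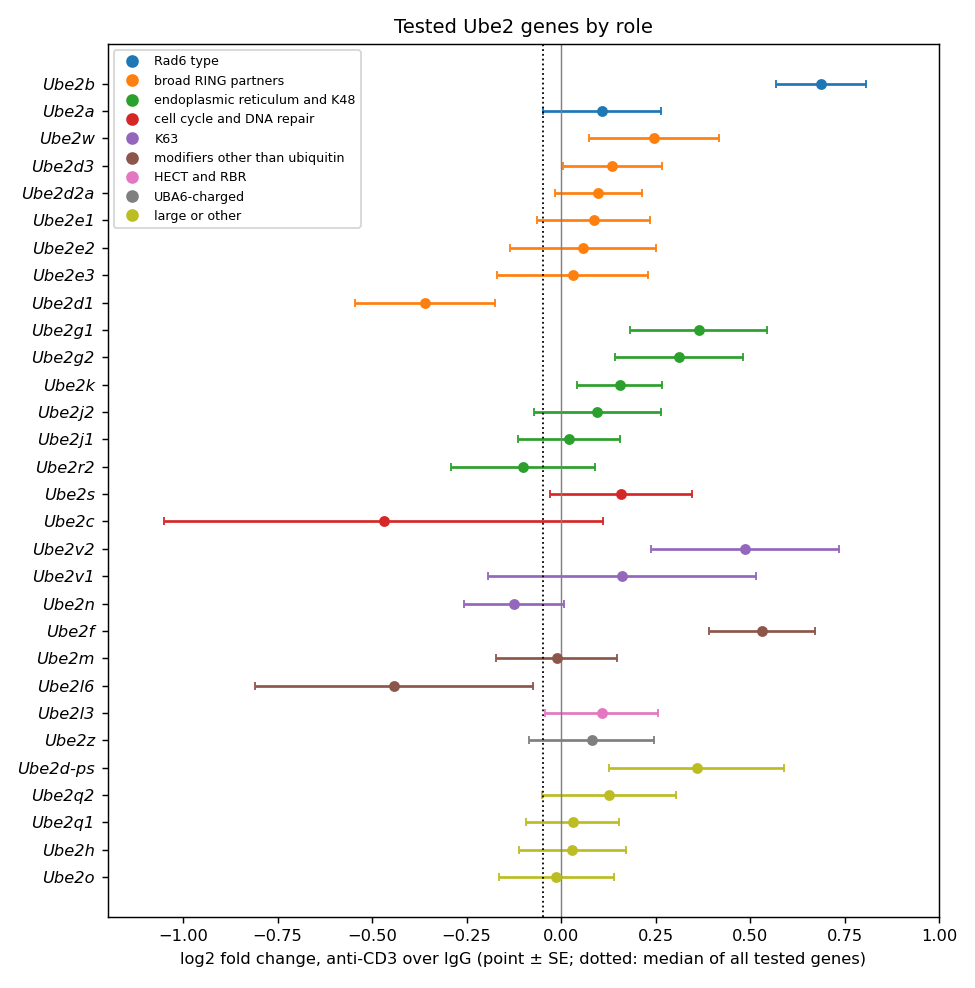
Log2 fold change between anti-CD3 and IgG (horizontal axis, point ± SE from edgeR) for 30 of the 31 tested Ube2 genes, coloured by role, with a dotted line at the median of all tested genes (-0.05). Most points lie within 0.2 of 0, Ube2b (0.69) and Ube2f (0.53) lie farthest to the right, and Ube2c (-0.47) and Ube2l6 (-0.44) farthest to the left with wide errors.

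Ube2l6, the E2 that carries the interferon-induced modifier ISG15, varied more between libraries than between groups. Its normalized counts in IgG 1 to 6 were 144, 186, 179, 241, 370 and 516. In anti-CD3 1 to 6 they were 334, 104, 149, 195, 117 and 315. The groups overlapped, with a log2 fold change of -0.44 ± 0.37. Leaving out IgG 6 gave -0.16, leaving out both IgG 5 and IgG 6 gave 0.10, and the acinar covariate gave 0.12, so its sign rests on these libraries. The summed normalized counts of 12 type I interferon markers (Isg15, Ifit1, Irf7 and others, none at 0 in any library) were 6546 to 33840 in IgG and 3086 to 15260 in anti-CD3 libraries. Both were highest in IgG 6 and next highest in IgG 5.

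Across the 12 libraries, log2 Ube2l6 followed the log2 interferon marker sum with Pearson's r = 0.913 (permutation p = 8e-05, adjusted over 3 such relations 0.00024). The relation of Ube2b to the acinar sum is counted in that adjustment but not read, since Ube2b values chose the family. Spearman's rho was 0.923 (permutation p = 6e-05, adjusted 0.00018). Without the 2 libraries farthest from the median of the markers, IgG 6 and anti-CD3 3, r was 0.935. Within the 6 IgG libraries r was 0.958 (exact permutation p = 0.0111, adjusted 0.0333) and rho 0.943 (exact permutation p = 0.0167, adjusted 0.05). Among the 4 IgG libraries left without IgG 5 and IgG 6 r was 0.652. Within the 6 anti-CD3 libraries r was 0.855 (exact permutation p = 0.0444, adjusted 0.133) and rho 0.771 (exact permutation p = 0.103, adjusted 0.308), and among the 4 left without anti-CD3 2 and anti-CD3 3 r was 0.956. The relation was chosen after the values had been seen, and Ube2l6 and the markers share each library's size factor. Uba7, the E1 that activates ISG15, had 225 to 1218 normalized counts in IgG and 155 to 393 in anti-CD3 libraries, with a log2 fold change of -0.95 ± 0.43, and without IgG 5 and IgG 6 it was -0.14.

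Ube2c and Ube2s build ubiquitin chains for the anaphase-promoting complex, the ligase that drives cells out of mitosis. Ube2c was low in most libraries. Its normalized counts were 7.19 to 71.5 in IgG (median 11.5) and 5.75 to 32.5 in anti-CD3 libraries (median 18.3), with 6 counts in the library with the fewest. The highest value, 71.5, was that of IgG 6, and the other 5 IgG libraries lay between 7.19 and 25.7. The sum of 11 proliferation markers was 1416 in IgG 6 and 145 to 475 in the other IgG libraries, and 101 to 443 in anti-CD3 libraries; 4 of the 11 markers were at 0 in at least 1 library. The Ube2c log2 fold change of -0.47 ± 0.58 was 0.35 when IgG 6 was left out, 0.30 when IgG 5 was left out too, and 0.81 under the acinar covariate. Ube2c followed the proliferation sum across the 12 libraries with r = 0.692 (permutation p = 0.0172, adjusted 0.0259) and rho = 0.601 (permutation p = 0.0424, adjusted 0.0636), and without IgG 6 and anti-CD3 3 r was 0.592. Within groups r was 0.927 in IgG (exact permutation p = 0.0250, adjusted 0.0375) and 0.399 in anti-CD3 libraries (exact permutation p = 0.422, adjusted 0.500). The corresponding rho was 0.829 (exact permutation p = 0.0583, adjusted 0.0875) and 0.486 (exact permutation p = 0.356, adjusted 0.533), so the relation was not shown within the anti-CD3 group. Among the 4 libraries left in each group without its 2 farthest, r was 0.915 and -0.573. The Ube2c relation was also chosen after the values had been seen, and Ube2c and the markers share each library's size factor. Ube2s, which lengthens the chains that Ube2c starts, had 106 to 186 in IgG and 112 to 222 in anti-CD3 libraries, with a log2 fold change of 0.16 ± 0.19, or 0.40 under the acinar covariate.

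**Figure D4:**
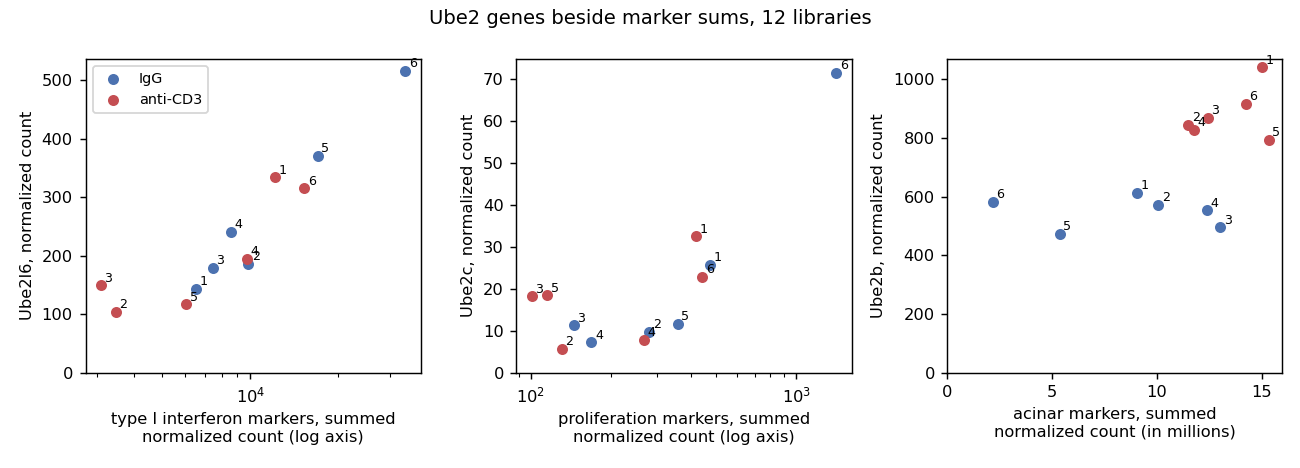
Normalized counts of Ube2l6, Ube2c and Ube2b (vertical axes, from 0) against the summed normalized counts of type I interferon, proliferation (both log axes) and acinar markers (linear axis); each point is a library, numbered 1 to 6, blue for IgG and red for anti-CD3. Ube2l6 climbs with the interferon sum in both colours, Ube2c is highest in IgG 6 (71.5), and the acinar sums are lowest in IgG 6 (2176000) and highest in anti-CD3 5 (15330000).

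Of the remaining members, Ube2l3, the E2 of HECT and RBR ligases, had 395 to 651 normalized counts in IgG and 398 to 652 in anti-CD3 libraries, with a log2 fold change of 0.11 ± 0.15. Ube2z, which is charged by the E1 Uba6, had 629 to 1092 and 640 to 925, with 0.08 ± 0.16. Ube2h (0.03), Ube2q1 (0.03), Ube2q2 (0.13) and Ube2o (-0.01), a large protein with both E2 and ligase activity, also lay near 0. The pseudogene Ube2d-ps had 28.2 to 65.9 in IgG (median 41.3) and 44.9 to 67.3 in anti-CD3 libraries (median 50.01), overlapping. Each anti-CD3 library exceeded the IgG mean, and the log2 fold change was 0.36 ± 0.23, or 0.13 under the acinar covariate. Ube2cbp was not tested, and its means were 9.97 ± 4.09 and 10.3 ± 4.40.

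Shared sequence limits some of these counts, since neither the strand setting nor the treatment of multi-mapping reads is given in the sources used here. Of the 32 members, 18 had at least 1 50-base window also present in another gene, and in 8 this held for over 10% of windows. Among these were Ube2q2 (20.9%), Ube2d2a (16.2%) and Ube2l3 (16.1%), mostly with unnamed gene copies. Ube2n (10.7%) was another, mostly with Ube2n-ps1. Exons of 10 members overlapped another gene, such as Ube2l3 with Ydjc (1670 bases, opposite strand) and Ube2e1 with Nkiras1 (718 bases, opposite strand). Of the genes with the largest differences, Ube2b and Ube2g1 had neither. Ube2f shared 5.12% of its windows, Ube2g2 5.9% and Ube2v2 9.36%, and exons of Ube2g2 and Ube2d-ps overlapped other genes.

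Levels per kilobase of principal transcript were highest for Ube2d3 in IgG libraries, at 522 ± 75.8 normalized counts. Ube2w followed at 450 ± 83.2, and Ube2b, at 306 ± 29.97, and Ube2g2, at 289 ± 72.1, ranked 4 and 5. Ube2d3 and Ube2w, and Ube2b and Ube2g2, lay within 1 SD of each other. In anti-CD3 libraries Ube2b ranked 3, at 492 ± 48.9. The order depends on the transcript chosen: per kilobase of longest transcript, Ube2b ranked 1, Ube2w ranked 10 and Ube2d3 ranked 12. For Ube2w the principal transcript has 543 bases and the longest 2181. The lowest levels per kilobase of principal transcript among tested members were those of Ube2v2 (11.4 ± 3.34) and Ube2v1 (13.0 ± 8.22) in IgG libraries. The CV of normalized counts over IgG libraries ran from 7.25% (Ube2d2a) to 108% (Ube2c), with a median of 19.4%, and over anti-CD3 libraries from 6.61% (Ube2d3) to 56.1% (Ube2c), with a median of 16.5%.

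Across all tested genes, log2 fold changes were higher for short transcripts. Over the 3277 genes with the shortest transcripts (up to 2176 bases) the median was 0.15, and over the 3275 with the longest (4852 bases and more) it was -0.19. Ube2b, with a longest transcript of 1792 bases, is among the shortest. With an offset for transcript length its log2 fold change was 0.55, and that of Ube2f, with 5654 bases, was 0.66. Over the 31 tested members the rank correlation of log2 fold change with length was 0.0782, and over 13100 genes it was -0.314, both given as descriptions across genes that share libraries.

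**Figure D5:**
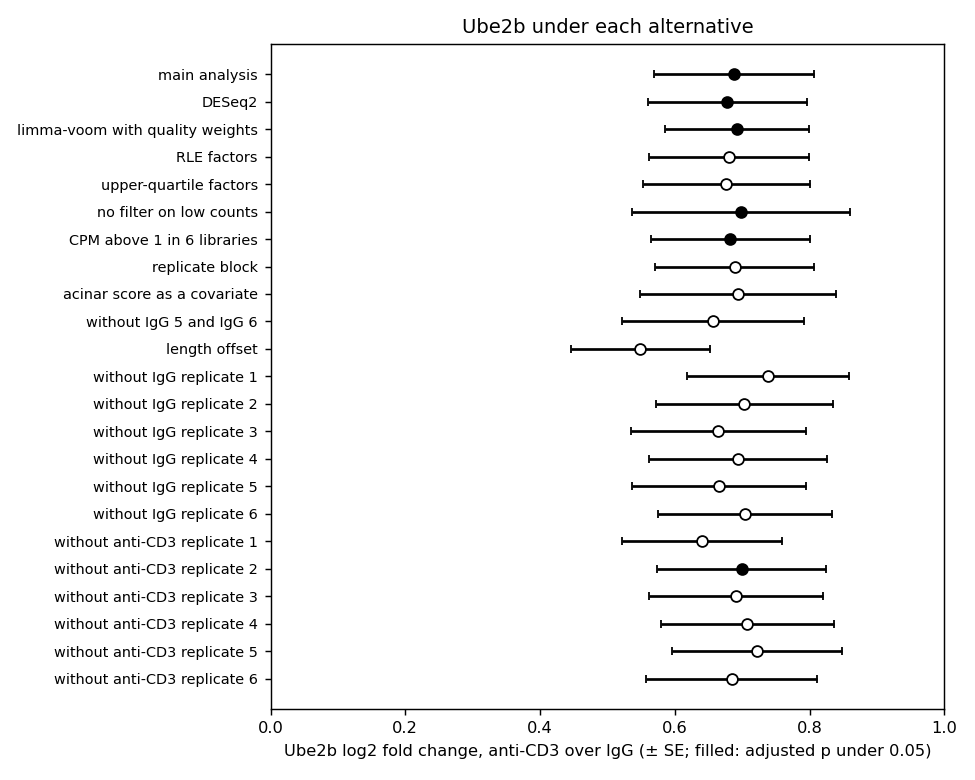
Log2 fold change of Ube2b (horizontal axis, ± SE) in the main analysis and under 22 alternatives, one per line; filled points have an adjusted p under 0.05. All points lie between 0.55 and 0.74, and 5 of the 22 alternatives are filled.

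The other genes of the pathway were read from 10 lists. No member of any list was past the adjusted threshold in edgeR's test, in either direction, whereas DESeq2 called 4 genes of these lists, all higher, among them Rps27a, Anapc13 and Brcc3. At an unadjusted p of 0.05 the counts in each direction below stand beside the 9.68% and 8.68% of all genes given above. Of 15 tested genes for ubiquitin and its relatives, 6 were higher and 0 lower, with a median of 0.31. Rps27a, which encodes ubiquitin fused to a ribosomal protein, had 1452 to 2196 normalized counts in IgG and 2225 to 4294 in anti-CD3 libraries, without overlap, and a log2 fold change of 0.82 ± 0.17 (adjusted p = 0.0659, edgeR). With the length offset Rps27a had 0.45, and 3 others of the 6 had lower values: Fau (-0.01, from 0.43), Nedd8 (0.09, from 0.51) and Ubb (0.16, from 0.37). Of 10 tested E2-fold proteins not named Ube2, 6 were higher and 0 lower, with a median of 0.40. They included Atg3 (0.46 ± 0.15), the E2-like enzyme of autophagy, and Ufc1 (0.44 ± 0.16), the E2 of UFM1. Under the acinar covariate Ufc1 had 0.20, Cdc34 0.19 (from 0.47) and Aktip 0.10 (from 0.49), while Atg10 had 0.72 (from 0.67). With the length offset Rwdd1 had 0.05, from 0.36.

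Lists of ligases and E1 enzymes gave other medians. Of 13 ligases and partners of Ube2a and Ube2b, 0 were higher and 2 lower, with a median of -0.14. The 2 were Huwe1 (-0.44 ± 0.17) and Ubr4 (-0.47 ± 0.19), both very large proteins, and with the length offset they had -0.17 and -0.21. Of 18 RING and RBR partners of Ube2d, Ube2l3 and Ube2n, 0 were higher and 2 lower, Cblb (-0.77 ± 0.30) and Cbl (-0.52 ± 0.21), ligases that restrain receptor signalling, and the list's median was -0.19. Cblb was -0.17 under the acinar covariate and -0.43 when IgG 5 and IgG 6 were left out, and Cbl was -0.28 with the length offset. Of 10 E1 enzymes, 1 was higher and 1 lower, the latter Uba7, with a median of -0.10.

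For degradation from the endoplasmic reticulum, 4 of 20 genes were higher and 0 lower, with a median of 0.15, among them Rnf5 (0.56 ± 0.19) and Herpud1 (0.68 ± 0.23), a scaffold of a membrane ligase. Under the acinar covariate these 2 had 0.25 and 0.33. Of 16 cullin and neddylation genes, 3 were higher and 1 lower, with a median of 0.11. The RING proteins that pair with Ube2m and Ube2f, Rbx1 (0.41 ± 0.14) and Rnf7 (0.40 ± 0.14), were among the higher, and with the length offset Rnf7 had 0.13. Of 16 genes of the anaphase-promoting complex, 2 were higher, Anapc13 (0.79 ± 0.18) and Cdc26 (0.36 ± 0.13), and 0 lower, with a median of 0.04; with the length offset Anapc13 had 0.50. Of 32 deubiquitinases, which remove ubiquitin, 3 were higher, among them Brcc3 (0.63 ± 0.16) and Uchl3 (0.44 ± 0.18), and 0 lower, with a median of -0.10; under the acinar covariate Uchl3 had 0.16. Of 13 SUMO ligases and proteases, 0 were higher and 0 lower, with a median of -0.08.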

How the data were processed

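Poly(A) RNA of islets was fragmented and copied with random primers, per the labels' protocols. The tools named are Trimmomatic 0.36 for trimming, STAR 2.5.2b for alignment, featureCounts from Subread 1.5.2 and DESeq2, with the build GRCm38 (mm10), per the submitters' processing notes. Neither the annotation release nor the strand setting or treatment of multi-mapping reads is given in the sources used here. Whole-number counts of 49315 genes were deposited, and 0 per-sample columns were left unmapped. The column used for anti-CD3 5 was matched by group and number and carries an added prefix that the labels do not explain. The deposited comparison table holds the normalized signal (counts over each library's size factor), the authors' log2 fold change and their p-values, for genes with at least 121 counts; the adjusted p is NA for 2935 genes, 3 of them Ube2 genes. Depths are given with the results; their number of counts limits the precision of low genes.

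The 6 IgG and 6 anti-CD3 libraries were grouped by title. The test was edgeR 4.0.16 (R 4.3.3, quasi-likelihood, robust, two-sided) on the counts, with TMM factors, filterByExpr (minimum count 10, total 15) and Benjamini-Hochberg adjustment over 13115 genes. The SE is the log2 fold change over the root of F, and 95% intervals are 1.96 SE. These intervals are approximate and narrower than the F test implies. For Ube2d1 the quasi-likelihood F test gave an unadjusted p of 0.0696, while the interval ended at 0.001. Alternatives were DESeq2 1.42.0, limma-voom (limma 3.58.1), RLE and upper-quartile factors, 2 other filters, the replicate number as a block, an acinar covariate, a length offset (lowess span 0.3), leaving out IgG 5 and IgG 6, and leaving out each library. The procedure was tested on simulated counts of 12937 genes. Of 100 genes changed 2-fold, 44% were recovered, and of 100 genes changed 4-fold, 95% were recovered. It also called 8 unchanged genes. Many 2-fold differences can thus be missed, so a gene that was not called is not shown to be unchanged. Correlations used 100000 permutations for 12 libraries and all 720 for 6. Gene models came from GENCODE M21, which matched all 32 symbols.

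The members, lists and alternatives were chosen with earlier results of these data known. Named genes were Ube2a and Ube2b, the 6 largest and 6 smallest log2 fold changes, the 3 highest levels per length, members by role, and the 2 smallest p-values of each list. Some of these genes are not reported here.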

Additional observations from a re-analysis of the deposited data

Results flagged for a closer look

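In each group of 6 libraries, the highest or lowest value of each of the 32 genes was compared with the other 5 by Dixon's criterion at its 95% critical value. Of 64 such groups 8 held a library far from the others. Chance alone gives about 1 in 20 for independent, normally distributed values. The genes share the same libraries, so no excess over that rate is read from these 8 groups. In 3 of them it was IgG 6, the library with the lowest acinar share: Ube2c had 71.5 normalized counts there (7.19 to 25.7 in the other IgG libraries), Ube2l3 had 651 (395 to 460) and Ube2s had 186 (106 to 136). IgG 3 was high for Ube2g2, at 866 (440 to 596), and for Ube2v1, at 58.5 (11.4 to 26.5). IgG 1 was high for Ube2r2, at 543 (261 to 310). Among anti-CD3 libraries, anti-CD3 5 was high for Ube2g1, at 477 (350 to 393), and anti-CD3 1 for Ube2s, at 222 (112 to 146). No Ube2b or Ube2f value met the criterion in either group.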

How the results depend on the processing

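The Ube2b log2 fold change was positive under all 22 alternatives, from 0.55 to 0.74, and past an adjusted p of 0.05 under 5 (DESeq2, limma-voom, no filter on low counts, a CPM filter, and without anti-CD3 2). It was 0.68 with RLE factors, 0.68 with upper-quartile factors, 0.66 without IgG 5 and IgG 6, 0.55 with the length offset, 0.69 under the acinar covariate, and 0.64 to 0.74 with 1 library left out. The number of Ube2 genes called higher (1) was 2 with DESeq2; 0 with RLE factors, upper-quartile factors, the acinar covariate, the length offset and without IgG 5 and IgG 6; and 0 to 1 with 1 library left out. No Ube2 gene was called lower under any alternative, and the median of the members stayed between 0.07 and 0.12. The sign stayed the same in every alternative for 14 of the 31 tested members and changed for 17.

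Over all genes, the 10 calls became 469 with DESeq2 (325 higher, 144 lower), 44 with limma-voom, 167 with no filter, 6 with upper-quartile factors, 4 with the length offset, 0 under the acinar covariate, and 1 without IgG 5 and IgG 6. Leaving out 1 library at a time, they ran from 0 to 203, the latter without anti-CD3 2. For the lists, DESeq2 called 2 modifier genes, 1 gene of the anaphase-promoting complex and 1 deubiquitinase; the analysis with no filter called 2 modifier genes and 1 of the complex, as did that without anti-CD3 2 (0 to 2 and 0 to 1 with each library left out). The cause of these shifts was not tested.

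Whether equal replicate numbers mark paired libraries was not settled. Correlations of their deviations from the group means ran from -0.287 to 0.552, so they differed in sign between numbers. For replicates 3 (0.552) and 6 (0.537) the libraries of both groups correlated best with their own number. With the replicate block Ube2b had 0.69 and was not past the threshold, 0 Ube2 genes and 0 of all genes were called, and libraries did not all correlate best with their own number. Depth limits Ube2c, Ube2v1 and Ube2cbp, with 6, 11 and 2 counts in their lowest libraries.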
